A study of Mus musculus with 8 samples.

Results

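The genes of the cartilage collagens, types II, IX, XI and XXVII, were followed across 8 arrays of rib chondrocyte RNA. They comprise 7 of the 18193 genes named by probe sets of a single symbol, Col2a1, Col9a1, Col9a2, Col9a3, Col11a1, Col11a2 and Col27a1, and were represented by every probe set that the platform annotation assigns to 1 of these symbols alone, 12 of the 45037 probe sets considered. Chondrocytes came from rib cages digested with collagenase and trypsin, of FVB embryos at E18.5, near the end of mouse gestation, and RNA was hybridised to one-colour Affymetrix arrays. The arrays fell into 4 labelled Hoxd4 transgenic and 4 labelled wild type (control), with 1 array of each genotype from each of 4 litters, named here litters 1 to 4 by replicate number. Hoxd4 is a homeobox transcription factor, and the comparison asks how its overexpression alters the transcripts of these cells. Embryos of a litter were sorted by genotype, and all groups share the strain and age. The labels do not name the promoter that drives the transgene, the transgenic line or the sex of the embryos. They also do not say how many embryos went into a sample, or whether it is an animal or a pool.

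Chondrocytes secrete a matrix whose thin fibrils are built from collagen II with collagen XI as a minor partner, while collagen IX sits along the fibril surface and links it to other matrix molecules. Collagen II is made of identical chains from Col2a1. The chains of collagen XI come from Col11a1, Col11a2 and Col2a1, and collagen IX is a mixed molecule of the Col9a1, Col9a2 and Col9a3 chains, so each of these molecules needs several genes to be transcribed together. Collagen XXVII, from Col27a1, is a shorter fibrillar collagen found in cartilage. SOX9, with SOX5 and SOX6, is known to activate transcription of Col2a1, Col9a1 and Col11a2 in mouse chondrocytes.

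Deposited values were MAS5 signals, intensities on a linear scale that were scaled to the same trimmed mean on every array. Array medians were 100.5 to 115, and the highest signal on an array was 49182 to 55564. Signals of different probe sets depend on their own probes and were not set against each other. All 7 chondrocyte markers fixed for a check of the cell type (Acan, Sox9, Matn1, Comp, Hapln1, Chad and Cnmd) were above the brightness filter, with a summed signal of 160112 to 170314 in transgenic-labelled arrays and 152765 to 170122 in control arrays. The digests also held other cells. The summed signal of 5 fibroblast and perichondrium markers was 63532 to 81681 in transgenic-labelled and 66106 to 75068 in control arrays, that of 6 skeletal muscle markers 16487.5 to 21091 in transgenic-labelled and 15758.5 to 23135 in control arrays, and that of the 3 measured erythroid markers 2341 to 5153 in transgenic-labelled and 3271 to 6535 in control arrays. Endothelial (6), macrophage (5) and osteoblast (4) markers each summed to at most 1769.6 on every array. Of 5 tested endothelial markers 2 were higher (Tek at 0.060 and Pecam1 at 0.018 on the log2 scale) and 3 lower. The lower ones were Cdh5 at -0.60, Kdr at -0.23 and Emcn at -0.20. The lowest p was that of Cdh5, the cadherin of that cell type. Cdh5 read 153 ± 11.2 in transgenic-labelled and 251 ± 47.3 in control arrays (SD, n = 4 each), lower in each litter. Its groups did not overlap, at 140 to 165 in transgenic-labelled and 189 to 304 in control arrays. Its unadjusted p in limma was 0.0018, and 0.0020 with the litter as a block. The adjusted p of Cdh5 in these limma fits was 0.9997 and 0.70. Both tested erythroid markers, Alas2 at -0.28 and Slc4a1 at -0.31, were lower in each litter. Of the 6 muscle markers 5 were higher and 1 lower, with Ckm at 0.37. With the litter as a block their unadjusted p in limma was 0.0014 for Alas2, 0.030 for Slc4a1 and 0.022 for Ckm. The adjusted p in that limma fit was 0.70, 0.89 and 0.84. The brighter of the 2 probe sets assigned jointly to Hoxd4 and its neighbour Hoxd3 read 94.1, 415, 172 and 13.0 in the arrays labelled transgenic in litters 1, 2, 3 and 4, against 27.3, 42.6, 4.10 and 256 in the control arrays of the same litters. It ran against the label in litter 4. The dimmer one read 26.8, 11.4, 20.0 and 24.3 in the transgenic-labelled arrays of litters 1 to 4, against 31.3, 8.92, 17.8 and 48.0 in the control arrays, and was lower in the transgenic-labelled array in litters 1 and 4. All readings of the dimmer probe set and most of the brighter one were below the array medians, and whether either reports the transgene was not tested. Whether the labels of litter 4 were exchanged was not tested either. Its differences would change sign if they were, so the collagen fold changes are also given without that litter. The ratios, the other named genes, the comparison between litters and the profile correlations are not. Sex-linked genes differed between the labels too. The brightest Xist probe set read 79.8, 3266, 47.2 and 8209 in transgenic-labelled arrays, against 5778, 9945, 13760.0 and 8098 in control arrays, so it was lower in litters 1 to 3 and nearly equal in litter 4. The Y-linked gene Eif2s3y read 813 to 1178 in transgenic-labelled and 358 to 772 in control arrays. In all control arrays and the transgenic-labelled arrays of litters 2 and 4, Xist and Eif2s3y were both well above the array medians. Whether those samples pooled embryos of both sexes was not tested. The part of these sex-linked differences in the results below was not tested.

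No cartilage collagen gene differed between the genotype labels beyond the spread between arrays. Of the 12 probe sets, 11 were bright enough for the test, and signals of transgenic-labelled and control arrays overlapped for all 12, while 2.27% of all tested probe sets had groups that did not overlap. Differences were tested on log2(signal + 32) with limma, with Benjamini-Hochberg adjustment over the 22518 tested probe sets. Of the 11, 0 passed an adjusted p of 0.05 (0% of all tested probe sets did) and 0 had an unadjusted p under 0.05, against 3.29% of all tested probe sets (1.58% higher and 1.71% lower). Relative to the median of other bright probe sets, a scaling tried after the data were seen, 712 probe sets passed that unadjusted threshold (204 upward, 508 downward), and none of the 11 was among them. The 7 brightest probe sets, 1 for each gene, had a median log2 fold change of 0.048, with 5 higher and 2 lower, beside a median of 0.0029 over all tested probe sets, of which 51.2% were higher, and of 0.022 over 652 other bright probe sets (mean signal above 10000). Relative to the bright probe sets the median of the 7 was 0.025, and with quantile normalization it was 0.0052. The interval of every tested collagen probe set lay between a fold of 0.816 and 1.18 for the groups as labelled.

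**Figure D1:**
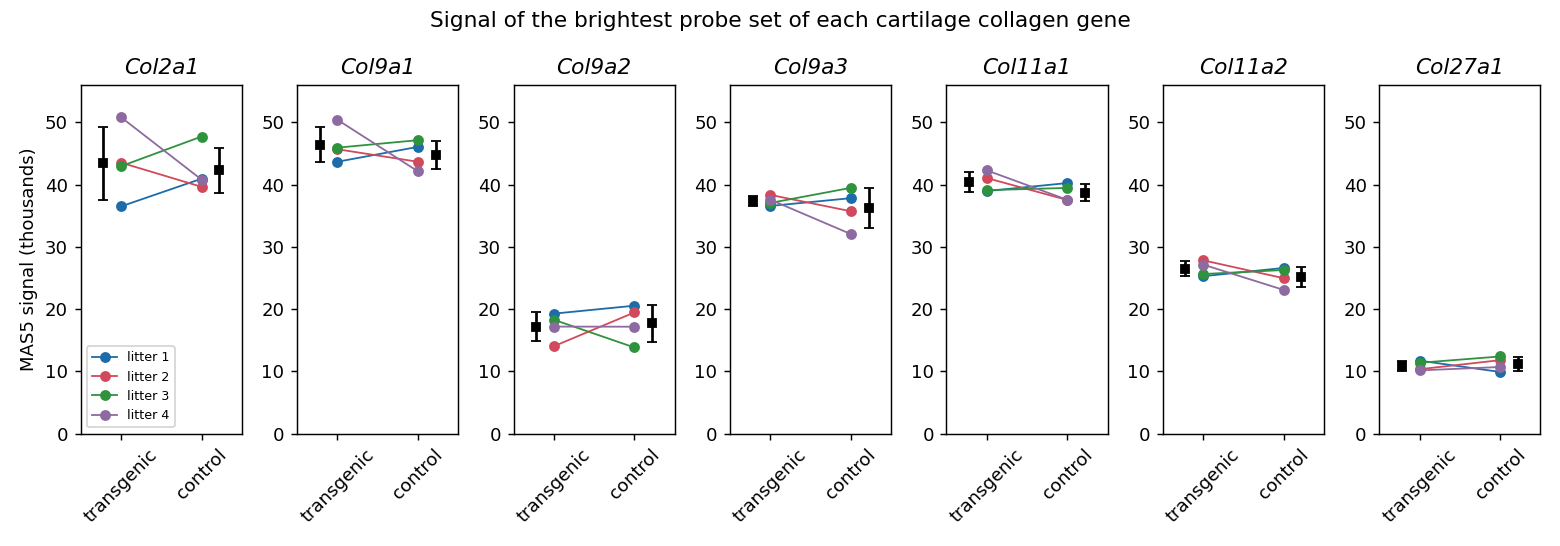
MAS5 signal of the brightest probe set of each gene in the 4 transgenic-labelled and the 4 control arrays, with a line joining the arrays of a litter and black squares for the mean ± SD of each label. The groups overlap in each panel, and heights in different panels belong to different probes and cannot be compared.

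Col2a1, which encodes the main fibril chain, was represented by 1 probe set, 1450567_a_at. Its signals were 36480.1, 43518, 42937 and 50824 in the transgenic-labelled arrays of litters 1 to 4, against 40939, 39633, 47711 and 40788 in the control arrays. The lowest and the highest of the 8 signals were both in transgenic-labelled arrays, those of litter 1 and litter 4, and the control signals lay inside that range. The means were 43439.8 ± 5866 in transgenic-labelled and 42268 ± 3676 in control arrays (SD, n = 4 each), and the log2 fold change was 0.033 (95% interval -0.16 to 0.22, adjusted p = 0.9997 in limma). The highest of its 8 signals was 1.39 times the lowest. With quantile normalization between arrays the log2 fold change was -0.0063, and without litter 4 it was -0.061.

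Collagen IX, the surface collagen of the fibril, was covered by 6 probe sets. Col9a1 has 2 annotated start sites, and a long and a short form of the chain, which differ by an amino-terminal domain, are known to begin at such alternative starts, the long one being the cartilage form. The RefSeq windows from 250 bases before to 50 after each start are given below to show how the annotated starts differ. The arrays do not measure start sites. Of the 7 genes, 5 had a window in the RefSeq promoter table of build GRCm38.p6. Capitals mark matches on either strand to 5 motifs. They are the TATA box TATAAA, the SOX-type core ACAATG, its variant with letters ACAAAG, the GC box GGGCGG and the CCAAT box. Of all 32851 promoter windows of that length, 13.6% held the TATA box, 12.6% the core and 18.7% its variant, 35.7% the GC box and 37.4% the CCAAT box. None of the motifs overlapped another in the windows shown.
Col9a1 upstream start, chr1:24177360-24177659, plus strand: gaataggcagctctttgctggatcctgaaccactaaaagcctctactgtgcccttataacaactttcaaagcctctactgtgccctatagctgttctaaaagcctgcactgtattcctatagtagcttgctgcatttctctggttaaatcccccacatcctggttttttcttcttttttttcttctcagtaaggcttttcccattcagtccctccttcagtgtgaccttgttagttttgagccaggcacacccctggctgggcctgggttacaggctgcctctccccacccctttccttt
Col9a1 downstream start, chr1:24194953-24195252, plus strand: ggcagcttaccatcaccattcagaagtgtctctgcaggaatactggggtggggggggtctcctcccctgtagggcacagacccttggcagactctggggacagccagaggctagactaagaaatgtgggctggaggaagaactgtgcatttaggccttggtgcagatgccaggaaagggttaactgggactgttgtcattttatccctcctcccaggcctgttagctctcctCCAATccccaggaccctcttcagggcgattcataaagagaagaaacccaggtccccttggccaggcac
Col9a2, chr4:121039316-121039615, plus strand: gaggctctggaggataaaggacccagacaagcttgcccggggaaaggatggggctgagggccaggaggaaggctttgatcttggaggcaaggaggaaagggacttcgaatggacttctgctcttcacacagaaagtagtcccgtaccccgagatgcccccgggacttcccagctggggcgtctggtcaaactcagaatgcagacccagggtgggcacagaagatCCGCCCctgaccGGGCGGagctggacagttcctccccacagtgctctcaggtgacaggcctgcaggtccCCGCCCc

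The upstream Col9a1 window held none of the 5 motifs and the downstream one a single CCAAT, while the Col9a2 window held 3 GC boxes. Their share of G and C was 47.3%, 55.7% and 61.7%, and the median over all windows was 52.7%. A match is a run of letters and was not tested as a binding site.

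Col9a1, the chain with the large amino-terminal domain in its long form, had signals of 43660.4, 45670.2, 45923 and 50405 in the transgenic-labelled arrays of litters 1 to 4 on probe set 1428571_at, against 46052, 43653, 47128 and 42113 in the control arrays. The transgenic-labelled array of litter 4 was the highest and the control array of that litter the lowest of the 8. The log2 fold change was 0.053 (95% interval -0.072 to 0.18, adjusted p = 0.9997 in limma). The other probe set of this gene, 1421381_a_at, ranged from 32103 to 34346 in transgenic-labelled and from 30128 to 34703 in control arrays, with a log2 fold change of 0.051 (95% interval -0.067 to 0.17). The difference between these log2 fold changes was -0.0013 (exact two-sided permutation p = 0.97, 70 assignments of the labels). Which of the forms each probe set measures is not given in the sources used here.

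Col9a2, a shorter chain of the same molecule, was the most variable of the 7 genes. Probe set 1450673_at read 19259.8, 14022, 18284 and 17178.5 in the transgenic-labelled arrays of litters 1 to 4, against 20538, 19459, 13822.5 and 17162 in the control arrays. The low signals came from 1 array of each label, transgenic in litter 2 and control in litter 3, and the other 6 lay between 17162 and 20538. The mean was 17186 ± 2274 in transgenic-labelled and 17745 ± 2970.1 in control arrays (SD, n = 4 each), with a log2 fold change of -0.040 (95% interval -0.29 to 0.21, adjusted p = 0.9997 in limma). Its direction rested on single arrays: without the transgenic-labelled array of litter 2 the value was 0.054. Without the control array of litter 1 it was 0.035, and without that of litter 2 it was 0.0096. Without the control array of litter 3 it stayed negative, at -0.15. No second probe set was annotated to Col9a2, so these readings have no check within the arrays.

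Col9a3, the third chain of collagen IX, was covered by 3 probe sets of unlike behaviour. The brightest, 1460734_at, read 36560.2, 38341, 37042 and 37569 in the transgenic-labelled arrays of litters 1 to 4, against 37809.6, 35707, 39472 and 32043.5 in the control arrays. The transgenic-labelled signals lay close together and within the control range, which the control array of litter 4 widened downwards. The coefficient of variation was 2.04% in transgenic-labelled and 8.84% in control arrays, and the log2 fold change was 0.048 (95% interval -0.087 to 0.18). Probe set 1460693_a_at ranged from 20445 to 25259 in transgenic-labelled and from 21913 to 24243 in control arrays, with a log2 fold change of -0.0040 (95% interval -0.15 to 0.14). The control array of litter 4, low on the brightest probe set, was second highest of the 4 control arrays on this one, at 23139.5. The remaining probe set, 1420280_x_at, is of a type that may bind other transcripts. It read 147, 44.1, 183 and 98.8 in transgenic-labelled arrays and 99.6, 68.6, 52.9 and 117 in control arrays, below the filter, and was not tested. The log2 ratio of 1460693_a_at to the brightest probe set had an SD of 0.13 over the 8 arrays, above that of either alone (0.092 and 0.091), and differed by -0.052 between the labels (exact permutation p = 0.57). Such ratios were computed for 5 probe sets, the dim one included, and the adjusted p was 0.97 for each, with 0.029 the smallest p possible. The ratio of the dim probe set is not read here.

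Collagen XI was covered by 3 probe sets, and Col11a1 had the lowest SD of log2 signal among the 7 genes on the MAS5 scale, 0.060 over the 8 arrays. With quantile normalization Col9a1 had the lowest, 0.029, against 0.049 for Col11a1. The RefSeq start windows of both, credited as above to GRCm38.p6, are shown because the ratio of these chains was among the least variable.
Col11a1, chr3:114030290-114030589, plus strand: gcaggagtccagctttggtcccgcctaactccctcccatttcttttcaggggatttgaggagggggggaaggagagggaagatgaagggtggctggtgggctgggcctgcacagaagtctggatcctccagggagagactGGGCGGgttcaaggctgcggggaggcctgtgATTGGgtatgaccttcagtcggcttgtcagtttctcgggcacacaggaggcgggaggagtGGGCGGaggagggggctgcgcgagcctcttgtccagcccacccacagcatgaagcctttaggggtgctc
Col11a2, chr17:34038888-34039187, plus strand: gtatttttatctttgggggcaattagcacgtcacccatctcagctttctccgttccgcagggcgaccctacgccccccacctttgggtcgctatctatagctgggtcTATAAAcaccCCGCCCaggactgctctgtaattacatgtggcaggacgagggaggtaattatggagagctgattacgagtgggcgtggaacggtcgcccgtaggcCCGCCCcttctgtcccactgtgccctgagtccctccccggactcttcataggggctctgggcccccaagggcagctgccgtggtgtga
Each held 2 GC boxes. Col11a1 also held a CCAAT, on the minus strand, and Col11a2 a TATAAA that began 143 bases before the start.

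Col11a1, the alpha 1 chain that helps set fibril width, read 38948, 41046, 39097 and 42288 on probe set 1418599_at in the transgenic-labelled arrays of litters 1 to 4, against 40240.1, 37512, 39458 and 37544 in the control arrays. The transgenic-labelled arrays of litters 2 and 4 were above all control arrays, and those of litters 1 and 3 were below the 2 highest control arrays. The means were 40345 ± 1609.8 in transgenic-labelled and 38689 ± 1378 in control arrays (SD, n = 4 each), and the log2 fold change was 0.060 (95% interval -0.050 to 0.17, adjusted p = 0.9997 in limma). The probe set 1449154_at gave 31038, 32368, 31104 and 32858 in transgenic-labelled arrays, against 30265, 30799, 32586 and 28232.5 in control arrays. Its log2 fold change was 0.065 (95% interval -0.053 to 0.18), and the difference between the probe sets was 0.0046 (exact permutation p = 0.89).

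Col11a2, the alpha 2 chain, had the largest log2 fold change of the 11 tested probe sets and the smallest unadjusted p, 0.26. Probe set 1423578_at read 25276, 27830.1, 25622 and 27141 in the transgenic-labelled arrays of litters 1 to 4, against 26602, 24952, 26270 and 23066.5 in the control arrays. Transgenic-labelled arrays of litters 2 and 4 were again the 2 highest, and the control array of litter 4 was the lowest. The log2 fold change was 0.071 (95% interval -0.058 to 0.20, adjusted p = 0.9997 in limma), and without litter 4 it was 0.016.

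Col27a1, the chain of the shorter fibrillar collagen, was measured by 2 probe sets that ranked the arrays differently. On 1453191_at it read 11709, 10332, 11368 and 10147.5 in the transgenic-labelled arrays of litters 1 to 4, against 9891, 11789, 12382 and 10689 in the control arrays, a log2 fold change of -0.036 (95% interval -0.20 to 0.13). On 1429549_at it read 8140.5, 7999, 6627 and 6266 in transgenic-labelled arrays, against 7691, 6996, 8183 and 5951 in control arrays, a log2 fold change of 0.011 (95% interval -0.21 to 0.24). The control array of litter 1 was the lowest of the 8 on the first probe set and above the median on the second. The log2 ratio between the probe sets had an SD of 0.18 over the 8 arrays, about that of 1429549_at alone, beside 0.13 for the bright Col9a3 probe sets, 0.067 for Col9a1 and 0.051 for Col11a1. The genotype differences of the Col27a1 probe sets differed by 0.047 (exact permutation p = 0.77).

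**Figure D2:**
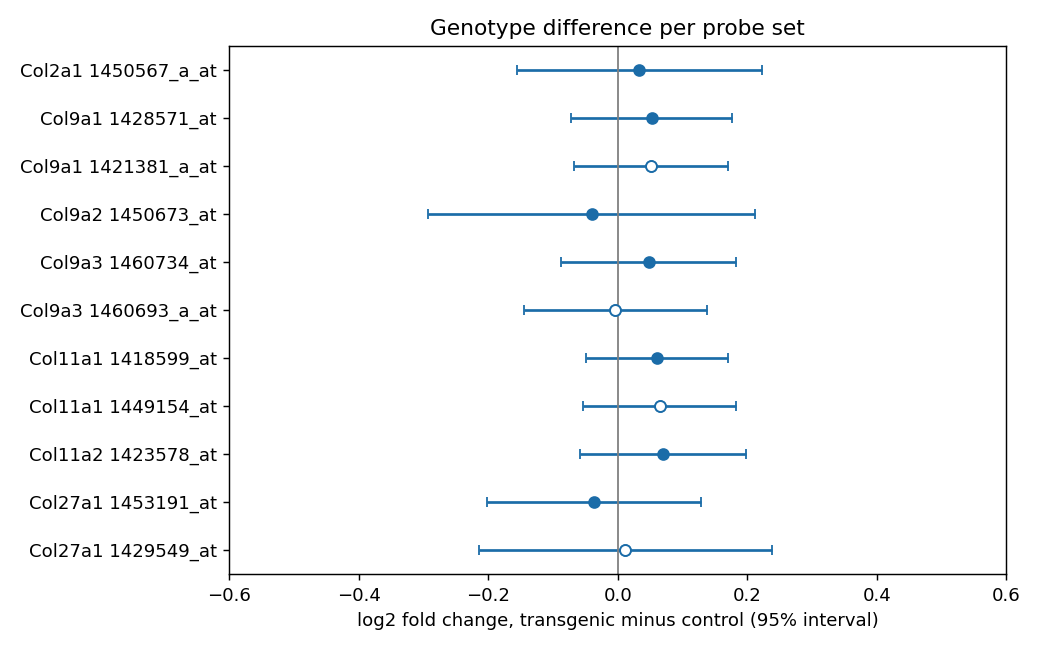
Log2 fold change, transgenic minus control, of the 11 tested probe sets with 95% intervals from limma (filled points, brightest probe set of a gene; open points, its other probe sets). Every interval includes 0 and lies within -0.29 to 0.24.

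Within litters, the brightest probe sets of most of these genes shared the sign of the difference, which changed from litter to litter. These genes were Col2a1, Col9a1, Col9a3, Col11a1 and Col11a2. On their brightest probe sets the transgenic-labelled array was below the control array of its litter in litters 1 and 3, and above it in litters 2 and 4. In litter 4 the log2 difference of these 5 genes ranged from 0.17 for Col11a1 to 0.32 for Col2a1, and in litter 1 from -0.17 for Col2a1 to -0.047 for Col11a1. Col9a2 and Col27a1 did not follow: Col9a2 differed by -0.47 in litter 2 and 0.40 in litter 3, and Col27a1 by 0.24 in litter 1 and by -0.19, -0.12 and -0.075 in litters 2, 3 and 4. This sign pattern, which was noticed in the collagen values and then counted elsewhere, was found in 120 of 652 other probe sets with a mean signal above 10000 (18.4%), in 1407 of all 22518 tested (6.25%), and in 6 of 20 other cartilage matrix genes. Bright probe sets as a whole moved the same way by less, with a median difference of -0.012, 0.029, -0.0097 and 0.084 in litters 1, 2, 3 and 4. With these medians taken off, the brightest probe sets of the 5 genes kept their signs in every litter, and in litter 4 their differences were 0.088 to 0.23. The other tested probe sets of Col9a1, Col9a3 and Col11a1 did not keep the full pattern, with no medians taken off. Col9a3 1460693_a_at differed by 0.20, 0.042, -0.25 and -0.018 in litters 1, 2, 3 and 4. Col11a1 1449154_at was at 0.036 in litter 1, and Col9a1 1421381_a_at at 0.0047 in litter 3. Xist split the transgenic-labelled arrays by the same litters, at 79.8 and 47.2 in litters 1 and 3, against 3266 and 8209 in litters 2 and 4. In control arrays it read 5778 and 13760 in litters 1 and 3, and 9945 and 8098 in litters 2 and 4. Whether the sign pattern goes with this sex-linked difference was not tested.

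**Figure D3:**
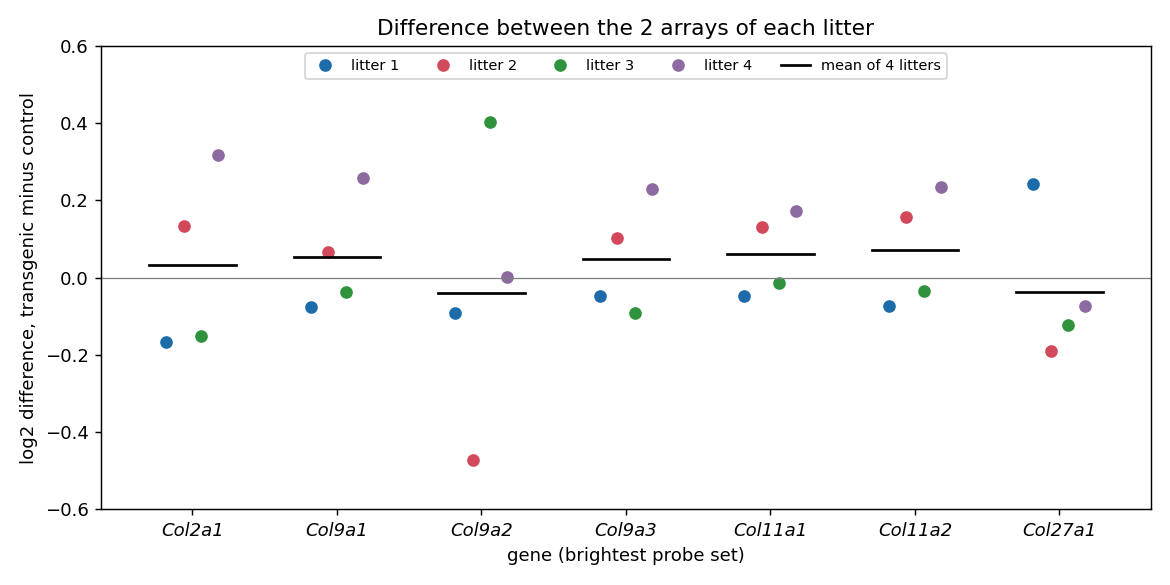
Log2 difference between the transgenic-labelled and the control array of each litter for the brightest probe set of each gene, with a bar at the mean of the 4 litters. Points of litters 1 and 3 lie below 0 and those of litters 2 and 4 above 0 for 5 of the 7 genes, and the points of Col9a2 spread from -0.47 to 0.40.

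Without both arrays of litter 4, the litter in which the Hoxd4 and Hoxd3 probe set ran against the label, the median log2 fold change of the 7 genes was -0.016. Col9a1 and Col9a3 then stood at -0.016 and -0.012 and Col11a1 at 0.023, and none of the 11 probe sets had an unadjusted p under 0.05 in limma. With litter 4 the median was 0.048 and Col11a2 stood at 0.071, without it at 0.016.

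Levels shared by both arrays of a litter were tested as a second comparison, with a moderated F test of the litter in limma and the genotype kept in the model. Among all tested probe sets 0.484% passed an adjusted p of 0.05 between litters and 14.6% an unadjusted one. Of the 11 collagen probe sets 0 passed the adjusted threshold, and 1, Col27a1 1429549_at, had an unadjusted p under 0.05 (0.019 before and 0.25 after adjustment in limma). Its log2 level was above its mean by 0.14 in litter 1 and below it by 0.23 in litter 4 (-0.23). The other Col27a1 probe set ran from 0.11 above the mean in litter 3 to -0.080 in litter 4, with an adjusted p of 0.61 in limma. Col2a1 ran from -0.14 in litter 1 to 0.094 in litter 4 (adjusted p = 0.46 in limma), and Col11a1 1418599_at stayed between -0.0091 and 0.013 (adjusted p = 0.99 in limma).

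Chains that form 1 molecule can be read against each other through the log2 ratio of their probe sets, whose absolute size carries no meaning but whose change does. Over the 8 arrays the ratio of Col11a1 to Col11a2 had an SD of 0.043 on the MAS5 scale, less than that of either alone (0.060 and 0.084). With quantile normalization the SD of this ratio was 0.059, above that of Col11a1 (0.049) and below that of Col11a2 (0.068). The ratios below are on the MAS5 scale. Among Col9a1, Col9a3, Col11a1 and Col11a2, grouped after their values were seen, the SD of the 6 ratios was 0.041 to 0.069. Ratios of Col2a1 to these 4 had SDs of 0.094 to 0.14, those of Col27a1 0.14 to 0.16 and those of Col9a2 0.24 to 0.26. Within collagen IX the ratio of Col9a1 to Col9a3 thus varied little (0.066), while the ratio of Col9a1 to Col9a2 varied by 0.25. Col9a2 alone had an SD of 0.21. All these ratios used the brightest probe set of each gene. Between the bright probe sets of Col9a3 itself the ratio had an SD of 0.13, and between those of Col27a1 0.18. These contrasts between genes are therefore not larger throughout than the disagreement between probe sets of the same gene.

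No ratio differed by label beyond the spread between arrays. The difference, transgenic minus control, was 0.0045 for Col9a1 over Col9a3, 0.093 for Col9a1 over Col9a2, -0.088 for Col9a2 over Col9a3 and -0.010 for Col11a1 over Col11a2 (exact permutation p = 0.94, 0.69, 0.57 and 0.80). The smallest p among the 21 pairs of genes was 0.23, for Col11a2 over Col27a1 (0.11), and the adjusted p was 0.94 for every pair. With single arrays left out Col9a1 over Col9a2 ranged between 0.0054 (without the transgenic-labelled array of litter 2) and 0.23 (without the control array of litter 3), and Col11a2 over Col27a1 between 0.058 (without the transgenic-labelled array of litter 2) and 0.19 (without the control array of litter 1).

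Spread over the arrays, read on the brightest probe set of each gene, also set the genes apart. The SD of log2 values over all 8 arrays was 0.060 for Col11a1, 0.080 for Col9a1, 0.084 for Col11a2, 0.091 for Col9a3, 0.12 for Col27a1, 0.15 for Col2a1 and 0.21 for Col9a2. The median over the 652 other bright probe sets was 0.081, with 10% below 0.051 and 10% above 0.15. Col9a2 thus varied more than 96.9% and Col2a1 more than 91.4% of those probe sets. Part of the shared variation was common to bright probe sets: the control arrays of litters 2 and 4 had the lowest median deviation among them (-0.051 and -0.054) and the lowest highest signal (50246 and 49182), and the 5 genes other than Col9a2 and Col27a1 were below their own means on both. With quantile normalization, which equalises this, the SD was 0.029 for Col9a1, 0.055 for Col9a3, 0.049 for Col11a1 and 0.068 for Col11a2, and was 0.12 for Col2a1 and 0.20 for Col9a2. Whether signals this high were compressed by the scanner was not tested.

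**Figure D4:**
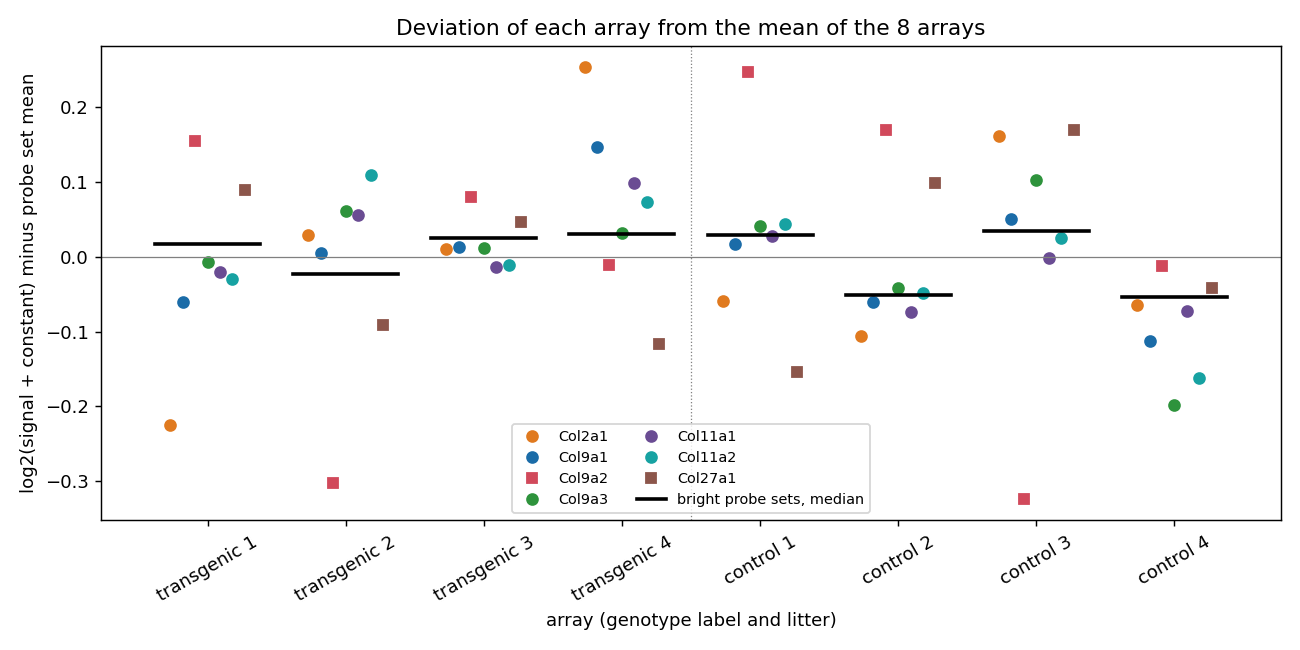
Deviation of log2(signal + 32) on each array from the mean of the 8 arrays for the brightest probe set of each gene (circles; squares for Col9a2 and Col27a1), with a black bar at the median deviation of 652 other bright probe sets. Col9a2 is lowest in the transgenic-labelled array of litter 2 and the control array of litter 3, and Col2a1 in the transgenic-labelled array of litter 1.

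Genes whose products work with these collagens also showed no difference that passed the adjusted threshold. Of 20 tested regulators of cartilage collagen genes, 12 were higher and 8 lower, with a median log2 fold change of 0.0098, and 0 had an unadjusted p under 0.05. Foxa3, a forkhead factor of hypertrophic chondrocytes, was at -0.22 (95% interval -0.46 to 0.012), and Snai1 and Snai2, repressors of the Snail family, at 0.26 (95% interval -0.054 to 0.57) and 0.11 (95% interval -0.057 to 0.29). Of 20 other cartilage matrix proteins 16 were higher and 4 lower, with a median of 0.029, among them Ucma at 0.083 and Cilp at 0.12, and Matn4, a matrilin, at -0.072. Of 23 tested genes of collagen modification, folding and secretion 16 were higher and 7 lower, with a median of 0.029. An unadjusted p under 0.05 was met by 1 of these 23, beside 3.29% of all tested probe sets: P4ha3, a subunit of prolyl 4-hydroxylase, at -0.26 (95% interval -0.52 to -0.0033, unadjusted p = 0.047 and adjusted p = 0.9997 in limma). Tmem38b, an endoplasmic reticulum ion channel, was at 0.29 (95% interval -0.026 to 0.60) and Sec23a, a coat protein of secretory vesicles, at 0.096.

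Of 10 tested genes of collagen processing and crosslinking 7 were higher and 3 lower, with Bmp1, a procollagen C-proteinase, at 0.19 (95% interval -0.024 to 0.40), Sparc at 0.056 and Pcolce, an enhancer of that proteinase, at -0.099. Collagen receptors and degrading enzymes gave 5 higher and 6 lower, with Ddr1, a collagen receptor kinase, at 0.093, Mmp2 at -0.062 and Ctsk, the collagenolytic cathepsin K, at -0.17. Of 30 other collagen chains 21 were higher and 9 lower, with a median of 0.035. Col25a1, a transmembrane collagen, was the 1 of these 30 chains with an unadjusted p under 0.05, a share near the 3.29% of all tested probe sets: its signal was 1088 ± 70.7 in transgenic-labelled and 928 ± 41.5 in control arrays (SD, n = 4 each), higher in 4 of 4 litters, with a log2 fold change of 0.22 (95% interval 0.043 to 0.40, adjusted p = 0.9997 in limma). Col19a1 was at 0.31 (95% interval -0.15 to 0.76) and Col4a5 at 0.14. With the litter as a block, which moved the share of all tested probe sets with an unadjusted p under 0.05 to 5.54%, the unadjusted p in limma was 0.025 for Foxa3, 0.037 for Tmem38b, 0.015 for Ctsk, 0.052 for P4ha3 and 0.015 for Col25a1. Their adjusted p with the block was 0.84 to 0.89 in limma, and none of the 11 tested cartilage collagen probe sets had an unadjusted p under 0.05 in that fit.

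Among 11006 other genes, those whose log2 profile over the 8 arrays was most like the mean profile of the 7 collagens were Gcn1, Ube2e1, Irgm1, Synj2bp and Gfm1, with Pearson correlations of 0.97, 0.95, 0.94, 0.94 and 0.93. None of these is a cartilage matrix gene. Of that list Fmod, a fibril-binding proteoglycan, ranked 45 (0.85), Acan 241 (0.70) and Comp 258 (0.69), while Matn1 ranked 10211 (-0.52). These are descriptions over arrays that share litters and the scaling. The mean profile itself was not shared by all members: the correlation of a gene with the mean of the other 6 was 0.83 for Col9a1, 0.65 for Col9a3, 0.58 for Col11a1 and Col11a2, 0.17 for Col2a1, -0.39 for Col27a1 and -0.53 for Col9a2.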

How the data were processed

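Per the labels' protocols, digested cells (collagenase and trypsin, each at 0.25%) passed a 70 micrometer filter, and Trizol RNA was labelled with biotin. The submitters' processing notes name MAS5 without a version, and detection calls were not used here. The deposited values are intensities on a linear scale whose mean, without the top and bottom 2%, is 500 on each array.

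Manufacturer's control probe sets were left out, leaving 45037 probe sets, of which 34945 had 1 gene symbol, 932 several and 9160 none. Symbols were looked up again by gene identifier in the RefSeq table of GRCm38.p6, which changed 0. Deposited intensities were turned to log2(signal + 32), 32 being the rounded median over arrays of the 25th percentile. Adding the constant shrinks differences at low signal. Probe sets with a mean signal above 105.9, the median over probe sets, were tested (22518). Differences were fitted in limma 3.58.1 (R 4.3.3) by lmFit, then eBayes with its trend option, without a litter term, ratios with exact permutation tests over 70 assignments in Python 3.11.15, and errors are SDs or 95% intervals. The fits were tested on simulated data.

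Replicate numbers mark litters per the labels, so arrays are paired by litter. The correlation of deviations from the group means was 0.28, 0.17, 0.041 and 0.14 for litters 1 to 4, with a mean of -0.052 between litters. Deviations from a group mean cancel within the group, so the mean between litters follows from the values within litters and is not a separate benchmark. The labels do not say that samples are single animals, so p-values measure the spread between these samples. The alternatives tried were a block for litter (fixed, and random), other constants, quantile normalization, no filter, no trend, leaving out arrays or litters and, chosen after the data were seen, values relative to bright probe sets. The genes named besides the 7 were up to 3 of each list with the smallest p and the 5 most alike in profile; Fmod, Acan, Comp, Matn1 and the genes that check the labels were added after their values were seen. The members, lists and tests were chosen with earlier results of these data known.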

Additional observations from a re-analysis of the deposited data

Results flagged for a closer look

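Col2a1 stood out in the control array of litter 3, at 47711, with the other control arrays at 39633 to 40939. The gap to the nearest of them was 0.84 of the range of the 4 control arrays, and chance alone marks about 1 in 20 groups of 4 in this way. Both labels of all 12 probe sets were screened by this rule, and this was the only group marked. The transgenic-labelled arrays, at 36480.1 to 50824, spanned a wider range than the control arrays.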

How the results depend on the processing

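None of the 11 tested collagen probe sets passed an adjusted p of 0.05 or had an unadjusted p under 0.05 in limma under any of 21 other settings. With the replicate block (the litter) the log2 fold changes were the same, at a median of 0.048, and no probe set on the array passed. The count at an unadjusted p under 0.05 was 1248 in that paired fit, against 740 without the block. The block changed no adjusted call. Among the genes named, it moved the unadjusted p of Foxa3, Tmem38b, Ctsk, Alas2, Slc4a1 and Ckm below 0.05 and that of P4ha3 above it. The number passing the adjusted threshold was 0 to 2 when single arrays or litters were left out, and 0 otherwise; the number between litters was 106 to 151. The median of the 7 genes was 0.0052 with quantile normalization and 0.025 relative to bright probe sets, and -0.016 to 0.096 when arrays or litters were left out. Near-zero values changed sign: Col2a1 was -0.0063 with quantile normalization, and Col27a1 1429549_at was -0.011 relative to bright probe sets. With arrays or litters left out the ranges were -0.061 to 0.11 for Col2a1, -0.016 to 0.096 for Col9a1 1428571_at, -0.19 to 0.10 for Col9a2, -0.012 to 0.094 for Col9a3 1460734_at, -0.074 to 0.077 for 1460693_a_at, -0.13 to 0.015 for Col27a1 1453191_at and -0.077 to 0.12 for 1429549_at. Ratios of probe sets to the brightest of their gene ranged from -0.031 to 0.026 (Col9a1), -0.11 to 0.011 (Col9a3 1460693_a_at), -0.017 to 0.028 (Col11a1) and -0.026 to 0.14 (Col27a1). Ratios between genes ranged from -0.083 to 0.037 (Col2a1 over Col11a1), 0.0054 to 0.23 (Col9a1 over Col9a2), 0.058 to 0.19 (Col11a2 over Col27a1), -0.033 to 0.034 (Col9a1 over Col9a3), -0.24 to 0.019 (Col9a2 over Col9a3) and -0.021 to 0.018 (Col11a1 over Col11a2). The cause of these sign changes was not tested. The 4 arrays per label limit the precision.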
